A study of Mus musculus with 2 samples.

Results

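WNT ligands, their receptors, the secreted and membrane proteins that modulate them, and genes that the pathway switches on were followed in mouse ureters whose Tbx18-lineage cells lack Rbpj. The genes were chosen by name: every numbered Wnt and Fzd gene on the array, together with a fixed set of R-spondins, LGR receptors, inhibitors, nuclear effectors and feedback targets. All 55 genes had probes, 70 probes in all, out of 29924 gene names and 39429 probes on the array. Of the 55 genes, 48 gave a signal above background by the filter described with the processing, 47 of them in all 4 RNAs and Wnt2 in 3 of 4. The 7 others were Wnt3, Wnt3a, Wnt7a, Wnt8a, Wnt8b, Wnt9b and Rspo2.

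WNT proteins are secreted lipid-modified ligands that bind Frizzled receptors together with the co-receptors LRP5 and LRP6, which stops the destruction of beta-catenin and lets it act with TCF/LEF factors on target genes. Other WNT signals run through Frizzled, ROR and RYK receptors without beta-catenin. R-spondins, bound by LGR receptors, hold off the E3 ligases ZNRF3 and RNF43 that remove Frizzled from the cell surface, while SFRP, FRZB, WIF1, DKK and NOTUM proteins dampen the signal outside the cell. In the embryonic mouse ureter, WNT ligands from the epithelium act through beta-catenin on the adjacent mesenchyme that forms smooth muscle.

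The Rbpj-cKO ureters were from NMRI mice of genotype Tbx18(cre/+);Rbpj(fx/fx), and the control ureters from NMRI mice of genotype Tbx18(+/+);Rbpj(fx/n.d.), both at postnatal day 4. Cre is made from the Tbx18 locus, so deletion is directed at cells with a history of Tbx18 expression, and the groups differ in the Tbx18 allele as well as in Rbpj. A floxed Rbpj allele was common to both genotypes. The 2-colour arrays carried 1 Rbpj-cKO and 1 control RNA each, a pair labelled female on array 1 and a pair labelled male on array 2 with the dyes exchanged, so n = 2 pairs. The labels do not say how many animals stand behind an RNA. The p-values rest only on the spread between these 2 pairs, moderated in limma by the spread over all genes.

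Ratios are log2 of Rbpj-cKO over control, and levels are normalized log2 intensities of single RNAs, which are compared between RNAs for a given probe and not between genes. Between 71.8% and 74.0% of gene spots were well above background in each channel, and the number of arrays limits the precision. Rbpj itself had levels of 12.78 and 12.64 in the Rbpj-cKO RNAs of arrays 1 and 2, against 13.69 and 13.74 in the control RNAs. Its mean ratio was -1.01 ± 0.13 (SD, n = 2, adjusted p = 0.0875 in limma), so it did not pass the threshold of 0.05. Y-linked transcripts went against the label of array 1: Ddx3y was higher in its Rbpj-cKO RNA by 4.23 although both RNAs are labelled female. Its levels were 11.31 in the Rbpj-cKO RNA and 7.08 in the control RNA of array 1, against 12.92 and 13.46 on array 2. Within array 1, genotype thus changes together with Y-linked transcripts, and the 2 cannot be told apart in its ratios.

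Markers of some other cell types also differed between the RNAs. For comparison, 31.8% of all genes tested were higher on both arrays, 29.8% lower on both and 38.5% of opposite sign. All 13 of 13 adipocyte markers were lower on both arrays, with median ratios of -2.80 on array 1 and -1.50 on array 2, and summed log2 levels of 17.20 to 17.37 in Rbpj-cKO RNAs against 18.38 to 19.93 in control RNAs. Of 12 kidney tubule and podocyte markers 9 were measured, and 7 of these were higher on both arrays, with medians of 0.97 and 0.26 and summed levels of 12.92 to 12.95 in Rbpj-cKO RNAs against 12.69 in both control RNAs. Mesothelial markers had medians of 0.32 and 0.10 (4 of 7 higher on both arrays) and summed levels of 17.32 to 17.40 in Rbpj-cKO RNAs against 17.22 to 17.36 in control RNAs. A summed level follows the brightest genes of its list. Here these were Krt19 and Krt7, with mean ratios of 0.01 and 0.07, while Gpm6a had 1.02 and Lrrn4 0.89. Of the 7 mesothelial markers, 3 had opposite signs and 0 were lower on both arrays. Liver markers stood apart in the control RNA of array 2, with a summed level of 16.60, against 15.53 to 15.79 in the Rbpj-cKO RNAs and 15.46 in the control RNA of array 1. All 9 measured of 10 liver markers had opposite signs on the 2 arrays, with median ratios of 0.60 and -2.66. The 7 leukocyte markers had medians of -0.14 and 0.05 (6 of opposite sign), with summed levels of 15.12 to 15.22 over the 4 RNAs. The 7 nephron progenitor markers had medians of -0.01 and 0.13 (3 higher and 3 lower on both arrays), with Six2 at 1.41 and 0.97. The 8 nerve and Schwann cell markers had medians of -0.09 and -0.16 (4 lower on both arrays), with Uchl1 at -0.64 and -0.75. The defining markers of ureter were present. All 8 ureteric mesenchyme markers were higher on both arrays (medians 0.13 and 0.10), with summed levels of 17.45 and 17.58 in Rbpj-cKO RNAs against 17.26 and 17.41 in control RNAs. The 9 smooth muscle markers had medians of -0.10 and -0.34 (6 lower on both arrays), with summed levels of 19.45 and 19.30 in Rbpj-cKO RNAs against 19.47 and 19.67 in control RNAs. The 10 urothelial markers had medians of 0.39 and 0.08 (6 higher on both arrays), with summed levels of 19.52 and 19.43 in Rbpj-cKO RNAs against 19.16 and 19.40 in control RNAs. The part of these differences in the ratios below was not tested, and in whole ureters fewer cells of a type and less RNA per cell cannot be told apart.

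The largest differences among the WNT genes were a higher level of the inhibitor Frzb and a lower level of the receptor Fzd9 in the Rbpj-cKO ureters, but no WNT gene passed the adjusted threshold in limma (0 of 48 genes, smallest adjusted p 0.103). Of the 21150 genes tested, 0% passed it as higher and 0.00473% as lower. At an unadjusted p under 0.05, limma gave 8 WNT genes (16.7%) as higher and 2 (4.17%) as lower, beside 6.99% and 7.02% of all genes tested. Together these 10 became 5 with median centring, beside 8.33% of all genes. A size rule asked for a ratio of 1.5-fold or more with the same sign on each array. Frzb met it as higher and Fzd9 as lower, 1 of 48 genes (2.08%) each way, beside 0.402% and 0.794% of all genes (85 and 168 genes, or 247 and 265 by the log ratio of the scanner software). Both Rbpj-cKO RNAs lay above both control RNAs for 10 of the 48 WNT genes (20.8%) and below them for 7 (14.6%), beside 22.3% and 20.8% of all genes, so these shares did not exceed the background. The median ratio was 0.03 over the 48 WNT genes, beside 0.00 over all genes, and 35 of the 48 (72.9%) lay within 0.2 of zero, as did 80.6% of all genes.

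**Figure D1:**
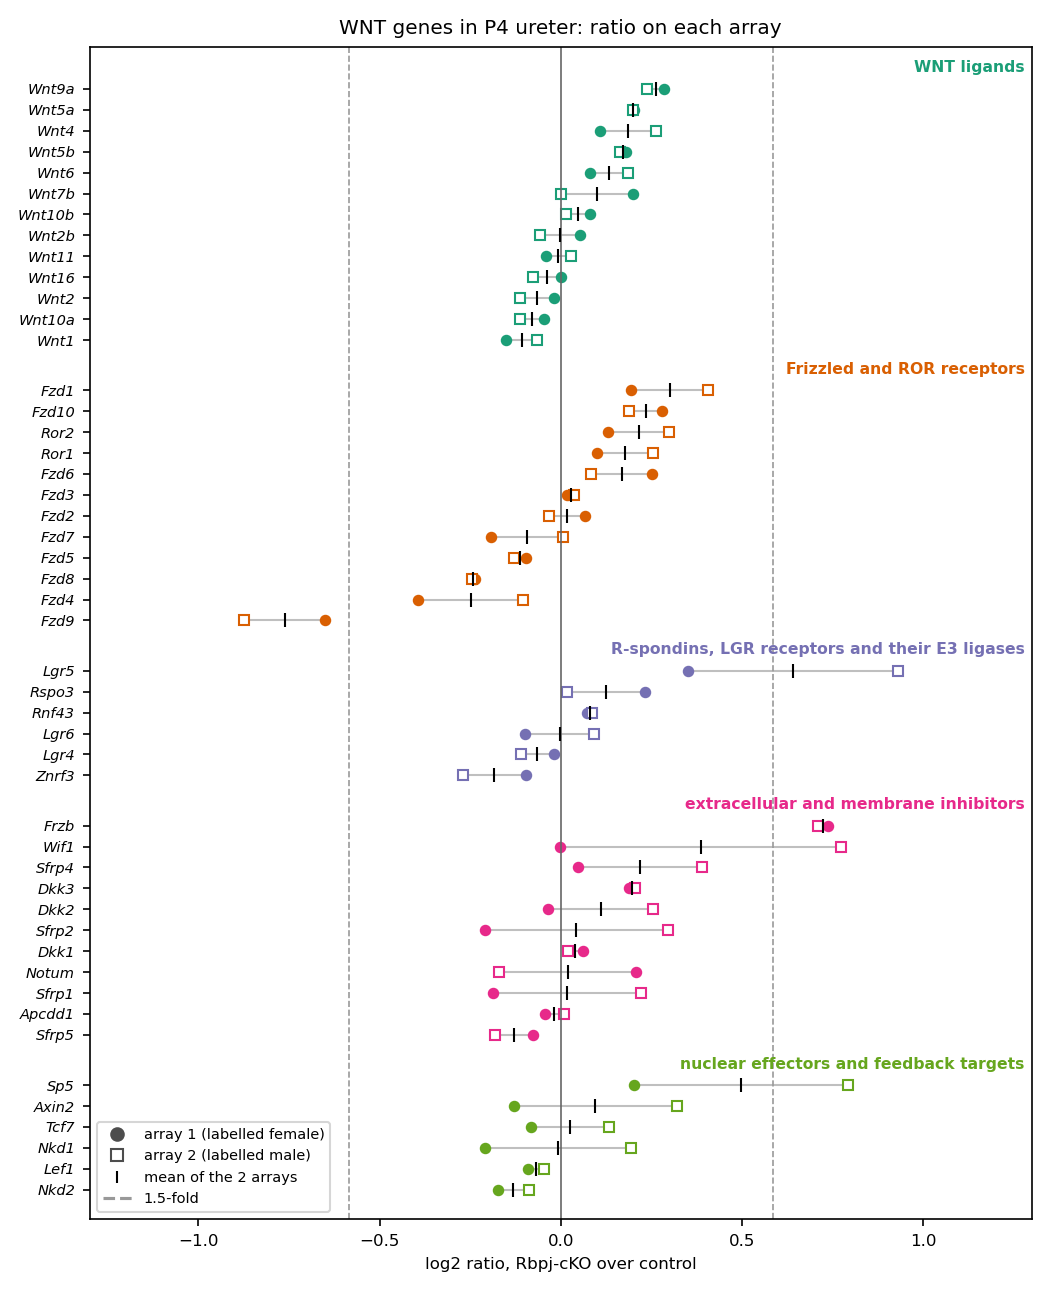
Log2 ratio of Rbpj-cKO over control for the 48 measured WNT genes, grouped by role; filled circles are array 1, open squares array 2, black ticks their mean, and dashed lines mark 1.5-fold. Frzb lies beyond 1.5-fold higher and Fzd9 beyond 1.5-fold lower on both arrays, while Lgr5, Sp5 and Wif1 pass the upper line on array 2 only.

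Frzb, which encodes a secreted Frizzled-related protein that binds WNT ligands, had the highest mean ratio of the 48. Its level was 10.76 and 10.78 in the Rbpj-cKO RNAs of arrays 1 and 2, against 10.03 and 10.07 in the control RNAs. Both Rbpj-cKO RNAs thus lay above both control RNAs, and the RNAs of a genotype were nearly alike. The ratios were 0.74 and 0.71, with a mean of 0.72 ± 0.02 (SD, n = 2), or 1.65-fold (adjusted p = 0.103 in limma, 95% interval 0.53 to 0.92). The single spots spanned 0.69 to 0.79 on array 1 and 0.65 to 0.75 on array 2, so the arrays differed by less than the spots of an array. Frzb stood at percentile 99.6 of all genes tested. It was called with limma's trend and robust settings (adjusted p = 0.0497), as were 0.449% of all genes, and in none of the other fits run, over which the adjusted p reached 0.579. Its probe lies on chromosome 2 at 80252582-80252641 (mm9, minus strand).

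The promoters of Frzb and Fzd9 are shown because these genes met the size rule, and that of Sp5 because it is a direct target of WNT signalling; the 3 were chosen after their values were seen. Each is the 250 bases before the gene's start from RefSeq (GRCm38.p6), read 5′ to 3′ along the gene. Capitals mark TGGGAA, the core bound by RBPJ, on either strand (TTCCCA on the other), and CTTTGAA and CTTTGAT, spellings of the TCF/LEF core, on either strand (TTCAAAG and ATCAAAG on the other). The windows are chr2:80447397-80447646 (minus strand) for Frzb, chr5:135251048-135251297 (minus strand) for Fzd9 and chr2:70474673-70474922 (plus strand) for Sp5.
Frzb promoter: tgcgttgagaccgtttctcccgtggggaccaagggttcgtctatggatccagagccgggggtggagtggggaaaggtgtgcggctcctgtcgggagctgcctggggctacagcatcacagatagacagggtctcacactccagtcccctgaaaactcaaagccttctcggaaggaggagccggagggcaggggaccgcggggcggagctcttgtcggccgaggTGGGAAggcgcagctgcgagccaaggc
Fzd9 promoter: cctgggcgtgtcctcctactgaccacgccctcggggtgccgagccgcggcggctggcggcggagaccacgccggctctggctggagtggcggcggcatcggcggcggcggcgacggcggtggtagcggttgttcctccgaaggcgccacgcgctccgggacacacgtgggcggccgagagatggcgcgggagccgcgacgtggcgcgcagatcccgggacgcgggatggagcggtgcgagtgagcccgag
Sp5 promoter: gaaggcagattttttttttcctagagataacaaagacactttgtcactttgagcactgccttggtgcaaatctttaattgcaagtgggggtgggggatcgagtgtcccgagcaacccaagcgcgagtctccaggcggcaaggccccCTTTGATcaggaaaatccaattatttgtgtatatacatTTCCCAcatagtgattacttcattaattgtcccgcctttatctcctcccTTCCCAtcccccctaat
The Frzb window held 1 TGGGAA, starting 27 bases before the gene's start, and the Sp5 window 2 in the reverse orientation, starting 66 and 17 bases before it. The Sp5 window also held CTTTGAT, starting 104 bases before the start. No motif searched was in the Fzd9 window, and CTTTGAA was in none of the 3. In RefSeq windows of 250 bases before to 50 after the start, 8 of the 38 WNT genes with an entry (21.1%) held TGGGAA, beside 28.3% of the 27025 genes with one. For CTTTGAA it was 1 of 38 (2.63%), in Dkk1, beside 5.93%. For CTTTGAT, a spelling added after the windows were seen, it was 3 of 38 (7.89%), in Sp5, Wnt11 and Wnt5b, beside 4.29%. A match describes the letters only.

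Among the other inhibitors, Wif1 and Sfrp4 had the next largest mean ratios. Wif1, whose product binds WNT ligands directly, had levels of 10.16 and 10.57 in the Rbpj-cKO RNAs, against 10.16 and 9.79 in the control RNAs. The groups touched on array 1, and the difference lay on array 2 alone, with ratios of -0.000994 and 0.77 and a mean of 0.39 ± 0.55 (adjusted p = 0.487 in limma). Sfrp4, a secreted Frizzled-related protein, had levels of 12.79 and 12.75 in the Rbpj-cKO RNAs, against 12.74 and 12.36 in the control RNAs (ratios 0.05 and 0.39). Its Rbpj-cKO RNAs lay just above both control RNAs, with most of the difference again on array 2. Sfrp2, of the same family, had levels of 16.02 and 16.29 in the Rbpj-cKO RNAs, against 16.23 and 15.99 in the control RNAs, so that its ratios of -0.21 and 0.29 had opposite signs. With median centring in place of loess these signs turned, to 0.19 on array 1 and -0.15 on array 2. Dkk3, a divergent member of the DKK family, had ratios of 0.19 and 0.20, which became 0.47 and -0.16 with median centring. Notum, the enzyme that removes the lipid from WNT proteins, had the opposite order of signs to Sfrp2, with 0.21 on array 1 and -0.17 on array 2. Sfrp1, Dkk1, Dkk2 and Apcdd1, a membrane inhibitor, had means between -0.02 and 0.11, and Sfrp5 had -0.13. Of the 11 inhibitors, 4 were higher on both arrays, 1 was lower on both and 6 had opposite signs, beside 31.8%, 29.8% and 38.5% of all genes, and their median ratio was 0.04.

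Fzd9, a Frizzled receptor, had the lowest mean ratio. Its level was 8.25 and 8.28 in the Rbpj-cKO RNAs, against 8.90 and 9.15 in the control RNAs, with no overlap. The ratios of -0.65 and -0.87 gave a mean of -0.76 ± 0.16 (SD, n = 2, adjusted p = 0.125 in limma, 95% interval -1.003 to -0.52), so that the control level was 1.70 times the Rbpj-cKO level. It is a receptor with a single probe here, and its spots spanned -0.76 to -0.58 on array 1 and -0.99 to -0.79 on array 2. The probe lies on chromosome 5 at 135724815-135724874 (mm9, minus strand).

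The other receptors were spread on both sides of zero. Fzd1 had levels of 15.51 and 15.81 in the Rbpj-cKO RNAs, against 15.32 and 15.41 in the control RNAs, with a mean ratio of 0.30 ± 0.15 (adjusted p = 0.294 in limma); its ratios were 0.19 and 0.41, or 0.47 and 0.05 with median centring. Fzd4, the receptor that also binds norrin in endothelium, had levels of 11.75 and 11.49 in the Rbpj-cKO RNAs, against 12.14 and 11.59 in the control RNAs, and a mean ratio of -0.25 ± 0.20 (adjusted p = 0.386). The RNAs of Fzd1 did not overlap between genotypes and those of Fzd4 did, and the endothelial markers had medians of -0.22 and -0.09 on the 2 arrays (5 of 8 lower on both). Their summed log2 level was 16.11 in both Rbpj-cKO RNAs, against 16.54 and 16.20 in the control RNAs, and their part in the Fzd4 ratio was not tested. Fzd8 had -0.24 and -0.25, and Fzd10 0.28 and 0.19. Fzd2, Fzd3, Fzd5, Fzd6 and Fzd7 had means between -0.11 and 0.17. Of the 12 receptors, 6 were higher on both arrays, 4 lower and 2 of opposite sign, beside 31.8%, 29.8% and 38.5% of all genes. Their median ratio was 0.02.

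**Figure D2:**
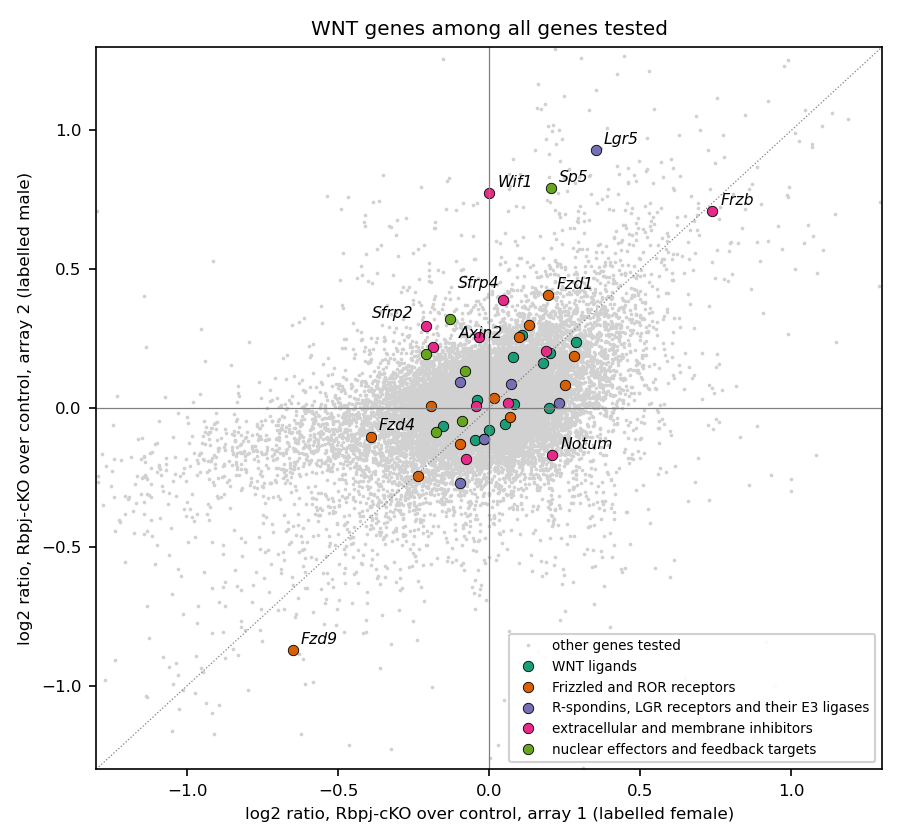
Log2 ratio of Rbpj-cKO over control on array 1 (horizontal) against array 2 (vertical) for the WNT genes, coloured by role, over all other genes tested in grey; 247 genes beyond 1.3 on either axis are not drawn and the dotted line marks equal ratios. Frzb lies on the line of equal ratios, whereas Wif1, Sp5 and Lgr5 lie above it.

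Lgr5, the R-spondin receptor that is itself a WNT target, had the second highest mean ratio. Its level was 10.28 and 10.93 in the Rbpj-cKO RNAs, against 9.93 and 10.003 in the control RNAs. The genotypes did not overlap, but the Rbpj-cKO RNA of array 2 stood clearly above that of array 1, while the control RNAs were close. The ratios were 0.35 and 0.93, with a mean of 0.64 ± 0.41 (adjusted p = 0.249 in limma, 95% interval 0.22 to 1.06). A second probe of Lgr5 was not well above background in any RNA.

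Other genes of this arm lay near zero. Rspo3, an R-spondin, had levels of 12.53 and 12.66 in the Rbpj-cKO RNAs, against 12.30 and 12.64 in the control RNAs. Lgr4, another R-spondin receptor, had 12.64 and 12.41 in the Rbpj-cKO RNAs, against 12.66 and 12.52 in the control RNAs. For both genes the RNAs of the 2 genotypes overlapped, and the mean ratios were 0.12 ± 0.15 and -0.06 ± 0.07. Znrf3, which encodes one of the ligases that clear Frizzled, had 6.87 and 6.88 in the Rbpj-cKO RNAs, against 6.97 and 7.15 in the control RNAs. This dim probe had a mean ratio of -0.18 ± 0.12 (adjusted p = 0.435 in limma), and of -0.46 by the scanner's log ratio. Rnf43, the related ligase, had 0.07 and 0.09. Rspo2 was well above background in 1 of 2 Rbpj-cKO RNAs and in 0 control RNAs, with levels of 6.80 and 6.70 in the Rbpj-cKO RNAs, against 6.58 and 6.60 in the control RNAs, and was not tested.

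Among the ligands, 0 of the 13 measured reached 1.5-fold on either array, and the mean ratios ran from -0.11 for Wnt1 to 0.26 for Wnt9a, with a median of 0.05. Wnt9a had levels of 10.65 and 10.77 in the Rbpj-cKO RNAs, against 10.37 and 10.53 in the control RNAs, a mean ratio of 0.26 ± 0.03 (adjusted p = 0.28 in limma). Wnt5a, a ligand best known for signals without beta-catenin, had 12.03 and 12.23 in the Rbpj-cKO RNAs, against 11.83 and 12.04 in the control RNAs. The 4 RNAs of Wnt9a separated by genotype, whereas those of Wnt5a overlapped because array 2 was higher in both genotypes, although its ratio was 0.20 on each array. Wnt4 had levels of 12.82 and 13.15 in the Rbpj-cKO RNAs, against 12.71 and 12.89 in the control RNAs, with ratios of 0.11 and 0.26 and overlapping genotypes. Wnt7b, an epithelial ligand of the ureter, had ratios of 0.20 and -0.00038. Wnt9b, the other epithelial ligand, was not well above background in any RNA. Of the 13 ligands, 6 were higher on both arrays, 4 lower and 3 of opposite sign, beside 31.8%, 29.8% and 38.5% of all genes.

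Ligands of neighbouring genes could be set side by side in the 4 pairs of WNT genes that lie next to each other in RefSeq. Wnt6 and Wnt10a had mean ratios of 0.13 and -0.08, and Wnt10b and Wnt1 had 0.05 and -0.11. In the pair Wnt3a and Wnt9a only Wnt9a was measured, and in the pair Wnt9b and Wnt3 neither was. The ligands Wnt5a and Wnt5b and the receptors Ror1 and Ror2, which bind WNT5A, were picked after their values were seen: all 4 were higher on both arrays, with means of 0.20, 0.17, 0.18 and 0.21 and adjusted p of 0.347, 0.403, 0.441 and 0.369 in limma. Because of that choice, the count cannot be read against the 31.8% of all genes that were higher on both arrays. Ryk, another receptor for signals without beta-catenin, had ratios of -0.03 and -0.06. A second, dimmer probe of Ror1 had 0.15 and 0.01.

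**Figure D3:**
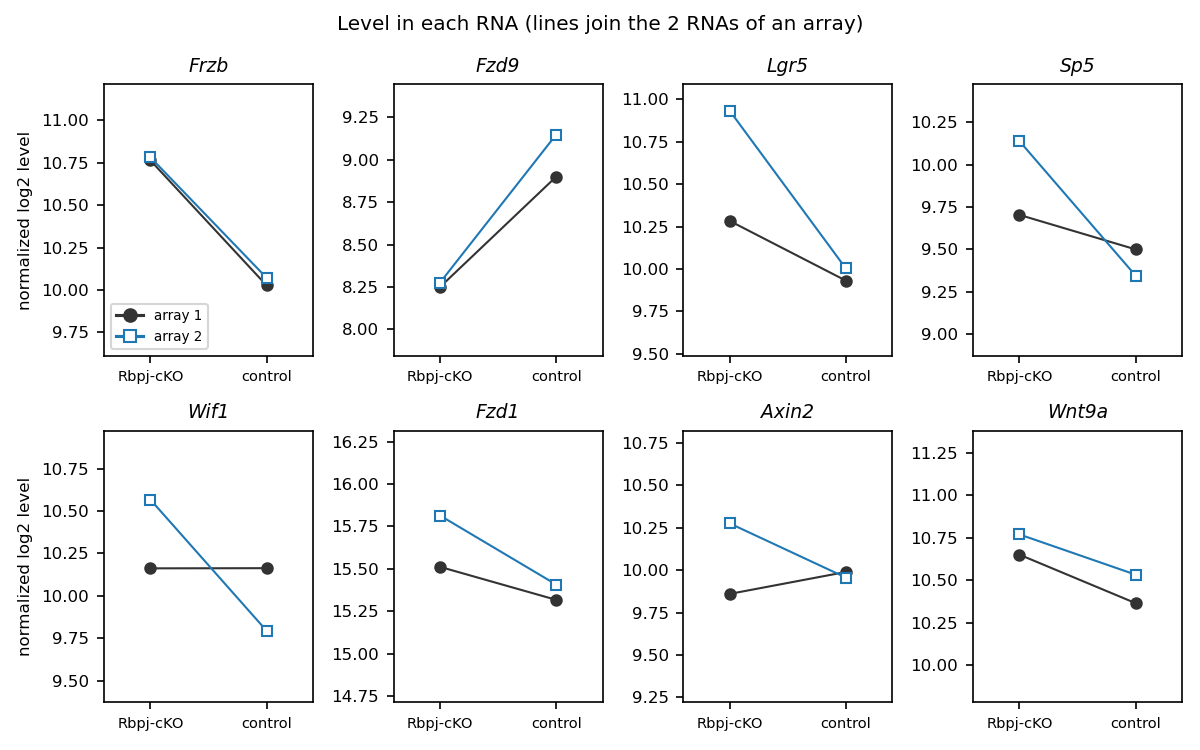
Normalized log2 level of 8 WNT genes in the Rbpj-cKO (left) and control (right) RNA of each array, with the RNAs of an array joined; each panel spans 1.6 log2 units around its own centre. The 2 lines of Frzb nearly coincide, while Wif1 and Axin2 have lines of different slope on the 2 arrays.

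Of the nuclear effectors and feedback targets, Sp5 had the highest ratio. Sp5 encodes a transcription factor induced directly by beta-catenin, and its level was 9.70 and 10.14 in the Rbpj-cKO RNAs, against 9.50 and 9.35 in the control RNAs. The genotypes did not overlap, but the ratio of 0.20 on array 1 was far below the 0.79 on array 2 (mean 0.50 ± 0.42, adjusted p = 0.314 in limma, 95% interval 0.07 to 0.93). Axin2, the scaffold protein widely used as a readout of WNT signalling, had levels of 9.86 and 10.28 in the Rbpj-cKO RNAs, against 9.99 and 9.96 in the control RNAs. Its ratios of -0.13 and 0.32 had opposite signs, and the interval of its mean ratio of 0.10 ran from -0.25 to 0.44, which leaves room for a difference in either direction. Nkd2, which binds Dishevelled, had 14.38 and 14.59 in the Rbpj-cKO RNAs, against 14.56 and 14.68 in the control RNAs, with a mean ratio of -0.13 ± 0.06 (adjusted p = 0.527). A dimmer probe of Nkd2 gave -0.51 and -0.39, so its probes differ by 0.32 in the mean. Nkd1 had -0.21 and 0.20, and its second probe 0.01 and 0.23. Tcf7 and Lef1, the TCF/LEF factors of the list, had means of 0.03 and -0.07. Of the 6 genes, 1 was higher on both arrays, 2 lower and 3 of opposite sign, beside 31.8%, 29.8% and 38.5% of all genes.

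In all, 10 of the WNT genes had 2 probes above background, and 8 of these 10 pairs had mean ratios of the same sign. The probes of a gene differed by a median of 0.08, and in 7 of 10 genes by no more than 0.1. The exceptions in sign were Nkd1 and Tcf7, whose means lie near zero. Frzb, Fzd9, Wif1 and Sp5 had 1 probe each, so no second probe bears on them.

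Some genes varied widely between the pairs. Of the 48 genes, 7 (14.6%) had ratios at least 0.4 apart on the 2 arrays, beside 9.03% of all genes, and in all 7 the ratio of array 2 was the higher: Wif1, Sp5, Lgr5, Sfrp2, Axin2, Sfrp1 and Nkd1. Notum, with array 2 lower by a difference of -0.38, lay just under that bound. With median centring 8 genes passed it (16.6% of all genes), 5 with array 2 higher and 3 (Notum, Fzd1 and Dkk3) with array 1 higher, and the difference of Sfrp2 turned to -0.34. Over all genes the ratio of array 2 was the higher in 57.5%, and in 54.2% of the 48. Among all genes, the difference of Nkd1, the smallest of the 7, stood at percentile 93.7, and that of Notum at percentile 3.02. Large differences with array 2 higher were thus the more common ones among all genes too. Sex label, dye orientation and pair change together between the arrays and cannot be told apart. Within array 1, Y-linked transcripts also separated the 2 genotypes. The same RNAs had a summed liver marker level on array 2 of 15.79 in the Rbpj-cKO RNA against 16.60 in the control RNA, whose part was not tested.

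Of 80 further WNT pathway genes, from co-receptors and Dishevelled to planar polarity genes, 70 were measured. In limma 0 of them passed the adjusted threshold, with 5 (7.14%) higher and 3 (4.29%) lower at an unadjusted p under 0.05, beside 6.99% and 7.02% of all genes, and 0 met the size rule. On both arrays 17 (24.3%) had a positive ratio and 28 (40.0%) a negative one, beside 31.8% and 29.8% of all genes, and the median ratio was -0.03. Rspo1, an R-spondin, had levels of 10.85 and 10.01 in the Rbpj-cKO RNAs, against 9.70 and 9.77 in the control RNAs. Its ratios of 1.15 and 0.24 place the difference mainly on array 1. Marker medians on arrays 1 and 2 were 0.97 and 0.26 for kidney, 0.39 and 0.08 for urothelium, and 0.32 and 0.10 for mesothelium. Liver, ureteric mesenchyme, smooth muscle and nerve medians were also the higher on array 1. Adipocyte, endothelial, leukocyte and nephron progenitor medians were the lower there. The part of these cell types in the Rspo1 ratio was not tested. Cthrc1, a secreted protein that favours planar polarity signals, had 12.37 and 12.45 in the Rbpj-cKO RNAs, against 11.83 and 11.64 in the control RNAs. Twist1, a mesenchymal transcription factor, had 10.77 and 11.09 in the Rbpj-cKO RNAs, against 11.39 and 11.55 in the control RNAs. The genotypes did not overlap for either gene, with mean ratios of 0.68 ± 0.19 (adjusted p = 0.146 in limma) and -0.54 ± 0.12 (adjusted p = 0.152). Tmem88, a membrane protein that binds Dishevelled, had levels of 12.87 and 12.95 in the Rbpj-cKO RNAs, against 13.36 and 13.05 in the control RNAs, and a mean ratio of -0.30 ± 0.27, with ratios of -0.49 and -0.11.

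**Figure D4:**
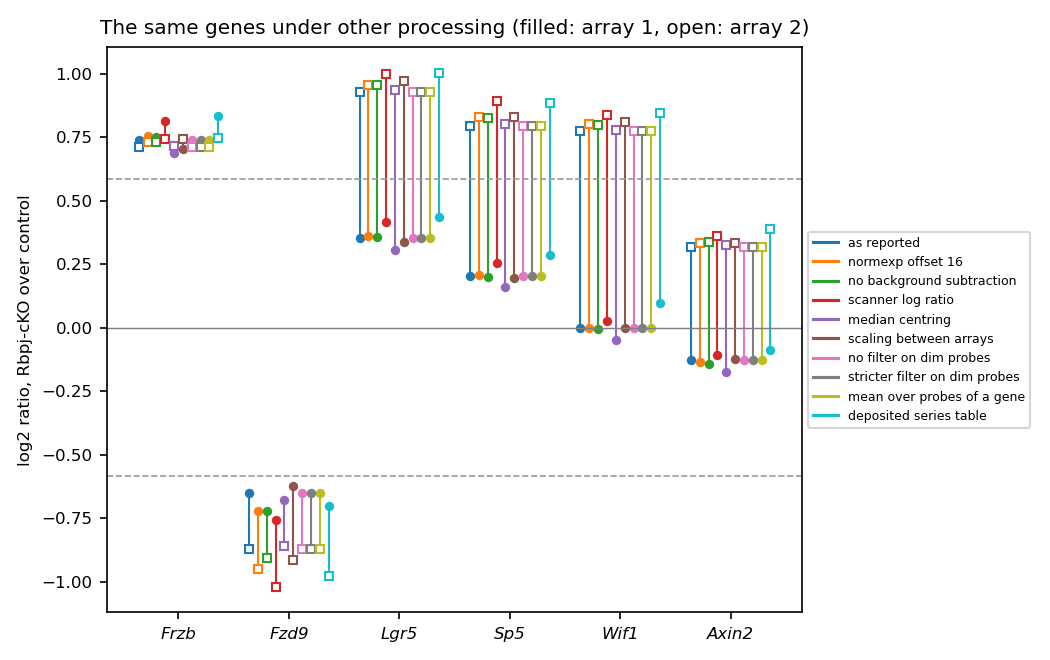
Log2 ratio of Rbpj-cKO over control for 6 WNT genes under the processing used here and 9 alternatives; filled circles are array 1 and open squares array 2, joined per setting, and dashed lines mark 1.5-fold. Frzb and Fzd9 lie beyond 1.5-fold on both arrays in every setting drawn, and Lgr5, Sp5, Wif1 and Axin2 keep their gap between arrays.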

How the data were processed

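Total RNA of postnatal day 4 ureters was measured on 2 two-colour Agilent arrays. The deposited spot values are fluorescence intensities from Agilent Feature Extraction 10.7.3.1, per the submitters' processing notes, and the deposited log ratio of the red over the green dye is on the log10 scale, per the file headers. The authors' deposited series table holds a score, read here as signed fold changes because no value lies between -1 and 1; its columns have medians of 1 and 1, and its values correlate with the scanner's log ratio of Rbpj-cKO over control across probes at 0.777 and 0.686. Its scale and centring stay unknown, and it served as an alternative only.

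Mean signals were corrected with normexp on local background (offset 50), then normalized within arrays by loess (limma 3.58.1, R 4.3.3), with control spots at weight 0 and outlier spots dropped (3.34% and 3.12%). Each probe took the average of its 4 spots, and dyes were turned to Rbpj-cKO over control. A probe was kept where, in at least 1 genotype, more than 50% of spots exceeded background (the scanner's well-above-background call) on each array, and each gene took its brightest probe, which left 21150 genes. Names were updated through RefSeq accessions (GRCm38.p6); no WNT name changed. Levels of single RNAs are after loess and Aquantile scaling. Ratios were tested against 0 with limma (lmFit, eBayes, two-sided, Benjamini-Hochberg over all genes at 0.05), with 1 residual degree of freedom, or 4.35 with the prior. The pairing is that of the 2 RNAs on an array. The arrays share 1 slide and 1 scan day, per the file headers. The code was tested on simulated data.

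The members, lists and rules were chosen with earlier results of these data known. Levels in each RNA are given for genes past the threshold or the size rule and, per role, for the 3 largest absolute mean ratios and the brightest member, and for the 4 largest of the other pathway genes. Promoters came from RefSeq. Alternatives were the offset, no background subtraction, median centring, between-array scaling, the scanner's log ratio, other filters, the mean over probes, trend and robust settings, 4 single channels, the series table, and single arrays.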

Additional observations from a re-analysis of the deposited data

Results flagged for a closer look

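For 15 WNT genes the ratio of Rbpj-cKO over control had opposite signs in the pairs labelled male (array 2) and female (array 1). Each is a single pair, so the difference between the sexes was not tested. Sex, dye orientation and pair cannot be told apart here, and the female label of the Rbpj-cKO RNA of array 1 is at odds with its Y-linked transcripts. The ratio of the pair labelled male minus that of the pair labelled female was positive for 11 genes. It was 0.77 for Wif1, 0.50 for Sfrp2, 0.45 for Axin2, 0.41 for Sfrp1 and 0.40 for Nkd1. It was 0.29 for Dkk2, 0.21 for Tcf7, 0.20 for Fzd7 and 0.19 for Lgr6, with 0.07 for Wnt11 and 0.053 for Apcdd1. For 4 genes it was negative, with -0.10 for Fzd2, -0.11 for Wnt2b, -0.20 for Wnt7b and -0.38 for Notum. With median centring in place of loess, the difference of Sfrp2 turned to -0.34, while the other 14 kept their direction. Opposite signs remained for 12 of the 15 with median centring, 11 by the scanner's log ratio and 9 in the authors' deposited table. In the authors' deposited table Wnt2b had no difference on either array. Ratios of 1.5-fold or more in opposite directions were found for 0 of the 15, and 38.5% of all genes tested had opposite signs on the 2 arrays.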

How the results depend on the processing

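Frzb was the only WNT gene at least 1.5-fold higher on both arrays, and Fzd9 the only one at least 1.5-fold lower, under each of the 11 two-array alternatives. With a single array left, the higher count ranged from 1 to 4 (Frzb, Lgr5, Sp5 and Wif1 on array 2) and the lower count was 1 on either array. Of all 21150 genes, 258 were higher and 292 lower on array 2 alone, and 202 and 783 on array 1 alone. The number of WNT genes past limma's adjusted threshold was 0 except with trend and robust settings, where it was 1 (Frzb, adjusted p = 0.0497); over the two-array alternatives the adjusted p of Frzb ran from 0.0497 to 0.579 and that of Fzd9 from 0.0638 to 0.579. Treating the 4 channels as single RNAs, with no replicate block for the array, also gave 0. Among tested WNT genes with levels given per RNA, the mean ratio changed sign only when array 2 was left out. It did so for Wif1 (-0.000994 to 0.77 over single arrays), Sfrp2 (-0.21 to 0.29) and Axin2 (-0.13 to 0.32). Such a change is fixed in advance where the 2 arrays have opposite signs, because 1 of them must differ in sign from the mean. The other WNT genes of this kind change sign in the same way. An example is Notum, with a mean ratio of 0.02 and -0.17 on array 2 alone. On single arrays, median centring turned the signs of Sfrp2 (0.19 and -0.15) and, on array 2, of Rspo3 (-0.01) and Dkk3 (-0.16), and on array 1 the scanner's ratio and the authors' deposited table turned those of Lgr4 (0.02 and 0.04) and Wif1 (0.03 and 0.10). The count of WNT genes at an unadjusted p under 0.05, 10 as reported, was 5 with median centring, 7 with 4 channels and at most 12. With a mean over probes Nkd2 stood at -0.29. Across all genes, the size rule took 247 genes as higher and 265 as lower by the scanner software's ratio, and 154 and 209 by the authors' deposited table, against 85 and 168 as reported. The cause was not tested. TGGGAAA in place of TGGGAA was found in 1 of 38 WNT genes (2.63%), not 8 (21.1%). Beside these stood 9.16% and 28.3% of all genes with a RefSeq window. Signal over background limits Wnt3, Wnt3a, Wnt7a, Wnt8a, Wnt8b, Wnt9b and Rspo2, for which no ratio is given, and limma cannot be run on 1 array.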
